A study of Homo sapiens with 9 samples.

Results

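Single-exon transcripts inside protein-coding genes were collected from 9 transcript assemblies of the human melanoma line WM3248. A transcript was taken when it had 1 exon, its whole span lay inside a GRCh38 protein-coding gene and it touched no exon of a spliced transcript of the same library, with the mitochondrial chromosome left out. The rule found 35825 transcripts of 257149 assembled (13.9%), which were 56.5% of the 63380 single-exon transcripts, beside 193769 spliced ones. They lay in 6355 host genes when each was given 1 host, out of 20037 RefSeq protein-coding genes. They are called intronic single-exon transcripts below, although, as shown next, only some of them lay in an intron that the same library had assembled.

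WM3248 cells were treated for 24 h with ARN22089 at 4 µM or 6 µM, or with the DMSO vehicle alone (0 µM), and RNA was sequenced after enrichment for poly-A tails. ARN22089 is a small molecule designed to block the binding of CDC42-family GTPases to their effector proteins. Each dose had 3 libraries, all from this 1 line and with no other agent named, and each library was assembled separately. The labels do not say whether the replicates were separate cultures, so p-values here reflect library-to-library spread, some of which could be technical.

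An intron is the part of a gene that is copied into RNA and then removed by splicing. Poly-A libraries still hold some RNA from introns, because some introns stay in finished transcripts, some transcripts end early at a poly-A signal inside an intron, and whole smaller genes lie inside the introns of larger ones. An assembler also writes a separate 1-exon transcript where reads cover a stretch, such as a long last exon, that no spliced read ties to the rest of the gene.

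Some of the loci held by these transcripts also hold small RNA genes. Of 1562 miRNA hairpins in the RefSeq table (GRCh38.p14), 19 lay inside 17 loci that had an intronic single-exon transcript in at least 3 libraries. A locus is the merged span of overlapping single-exon transcripts of all libraries. The mature sequences below are of small RNAs whose hairpins lie inside such loci, with the seed (bases 2 to 8) in capitals. The seed is the part of a miRNA that pairs with its targets. Whether a transcript of a given library covers the hairpin, or is on its strand, was not checked. The first sequence belongs to the POLR2F locus tested below, and the others were chosen after their values were seen.
hsa-miR-4534: gGAUGGAGgaggggucu
hsa-let-7a-5p: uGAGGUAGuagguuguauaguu
hsa-let-7b-5p: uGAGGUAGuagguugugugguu
hsa-miR-99b-5p: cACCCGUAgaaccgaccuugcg
hsa-miR-3682-3p: uGAUGAUAcagguggagguag
hsa-miR-600: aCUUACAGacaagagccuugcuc

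hsa-let-7a-5p and hsa-let-7b-5p share the seed GAGGUAG, and both hairpins lay in 1 locus at chr22:46104619-46114009, inside the gene model LOC124905135. That locus had an intronic single-exon transcript in 6 libraries. Its level was 0.883, 1.14 and 1.24 FPKM at 0 µM, 1.06, 1.26 and 1.07 at 4 µM, then 0.988, 1.16 and 1.22 at 6 µM, so the 3 doses overlapped. The locus with the hsa-miR-99b-5p hairpin, chr19:51691207-51692833 in SPACA6, had such a transcript in 7 libraries, as did the STRBP locus with hsa-miR-600. The hsa-miR-3682-3p locus in GPR75-ASB3 had one in all 9. These values are of the long poly-A transcripts, and the mature miRNAs were not measured.

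The levels are given in FPKM, the deposited measure of abundance, which divides a transcript's fragments by its length and by the size of the library. For a locus, the FPKM of every transcript of a library that covers part of it, spliced ones included, was weighted by the covered bases and divided by the length of the locus. A locus can therefore have a level in a library that has no intronic single-exon transcript there.

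The name of the group was checked against where its members lie. Only 10430 of 35825 (29.1%) lay wholly inside an intron of a transcript assembled in the same library. The largest class, 14835 transcripts (41.4%), lay in the last exon of the host. That exon was placed by its annotated length, counted back from the 3′ end of the RefSeq span. The median position of this class, 96.8% along the host from its 5′ end, follows largely from that placing. A further 3072 (8.58%) lay mainly on a nested non-coding gene, most often a lncRNA (77.5%) or a pseudogene (10.9%). Another 1151 (3.21%) lay in a gene called intronless here, one whose main annotated transcript has 1 exon. Such a gene can still have spliced transcripts. Of 154 intronless gene loci with a member in at least 3 libraries, 7 had a host with spliced transcripts of at least 1 FPKM. The class called assembled intron below, 8623 transcripts (24.1%), lay in an assembled intron and in none of those 3 places. The remaining 5898 (16.5%) lay elsewhere in a host with spliced transcripts, and 2246 (6.27%) in a host without any. Members of other classes that lay mostly on an intronless gene but ran beyond it numbered 84, on 18 genes.

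**Figure D1:**
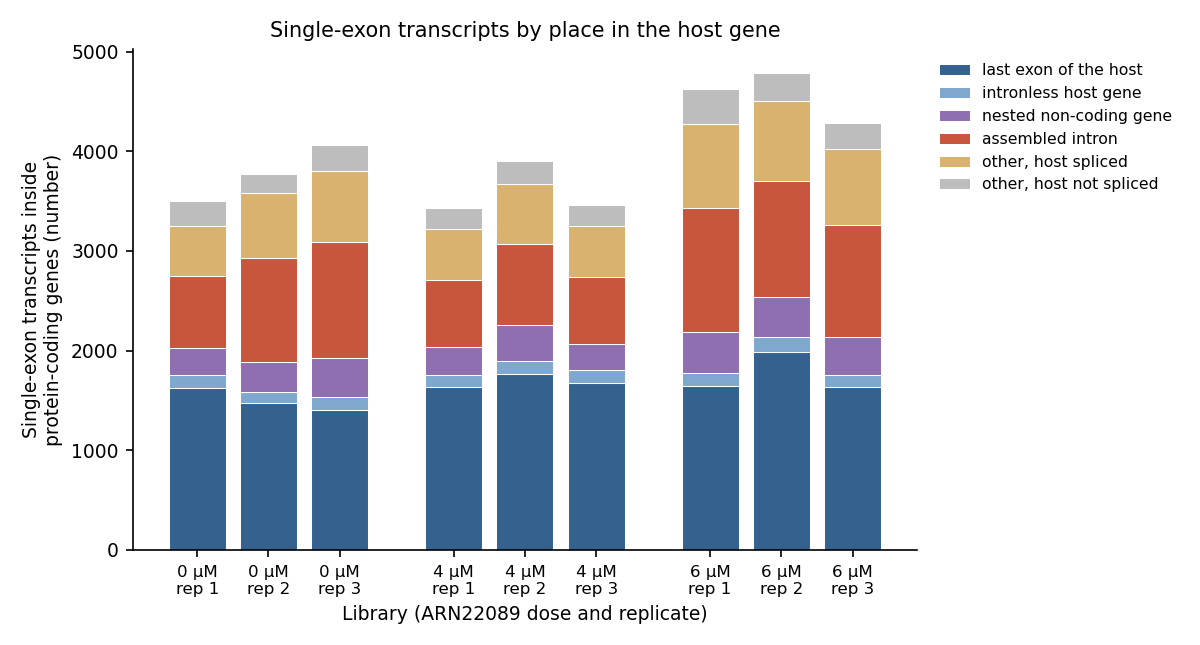
Number of intronic single-exon transcripts in each of the 9 libraries, stacked by the place of the transcript in its host gene. Last exons hold between 1408 and 1982 transcripts in every library, and the assembled intron class holds between 671 and 1243.

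The classes differed in form. Last-exon transcripts had a median length of 1296 bases and a median level of 1.33 FPKM, and those of the assembled intron class were shorter, 747 bases, at 1.87 FPKM. No strand was given for 85.5% of the assembled intron class and for 25.8% of the last-exon class. Where a strand was given, 96.7% of last-exon transcripts were on the strand of the host. The share was 67.6% in the assembled intron class, 845 on the host strand against 405 on the opposite one, and 59.8% on nested non-coding genes. Loci with a member in at least 3 libraries were also set against the spliced transcripts of a host of at least 1 FPKM. The median locus level was 33.1% of the host level over 1349 last-exon loci, and 9.36% over 937 assembled intron loci, with quartiles of 5.09% and 19.3%.

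Hosts were long and moderately expressed. Of 11213 protein-coding genes with spliced transcripts at a mean of at least 1 FPKM, 4971 (44.3%) were hosts. Their median span was 47.0 kb, against 24.2 kb for the 6242 expressed genes that were not hosts, and their median spliced level was 7.99 FPKM, against 19.1 FPKM. The 485 genes that were hosts in all 9 libraries (7.63% of hosts) had a median span of 68.1 kb. In contrast, 1856 hosts (29.2%) appeared in 1 library only. These are descriptions across genes, with no test.

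The libraries held 26505 to 30798 transcripts each. Relative depth, taken from the ratio of coverage to FPKM and set to 1 for the median library, was 0.948, 0.974 and 1.30 at 0 µM, 1.00, 0.979 and 0.802 at 4 µM, then 1.34, 1.00 and 1.096 at 6 µM. The 4 µM libraries were thus the shallowest on average and the 6 µM libraries the deepest. The cells carried their label: 6 of 8 melanocyte markers were at or above 1 FPKM in all 9 libraries, with SOX10 at 103 to 160.0 FPKM. The summed melanocyte markers ranged from 178 to 309 FPKM at 0 µM, 449 to 476 at 4 µM and 439 to 579 at 6 µM, and their part in the results was not tested. Of 5 fibroblast markers, 3 were at or above 1 FPKM in all libraries (sums of 16.8 to 60.8, 29.9 to 52.0 and 29.3 to 54.9 FPKM), KRT5, KRT1, PTPRC, CD3E and the 3 endothelial markers were at 0 throughout, KRT14 reached 2.27 FPKM, and CD68 was at 142 FPKM in 4 µM replicate 3 and at 0 elsewhere.

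The first question was whether the drug dose changed how many such transcripts a library held. Counts were 3501, 3769 and 4061 at 0 µM, 3427, 3901 and 3466 at 4 µM, then 4626, 4785 and 4289 at 6 µM. Every 6 µM library was above every other library, while the 0 and 4 µM libraries overlapped. The means were 3777 ± 280.1 (SD, n = 3), 3598 ± 263 and 4567 ± 253, a difference of 20.9% between 6 and 0 µM, of 26.9% between 6 and 4 µM and of -4.74% between 4 and 0 µM. By an exact two-sided permutation test, 3 libraries against 3 cannot give a p below 0.1, which both comparisons with 6 µM reached (adjusted p = 0.171 over 12 comparisons). The comparison of 4 with 0 µM gave an exact p of 0.5 (adjusted 0.6). The least squares slope over the 9 libraries was 106 transcripts per µM, with an exact permutation p of 0.118 (adjusted 0.157 over 4 measures).

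Mean relative depth was in the same order as the mean counts, but not library by library: 6 µM replicate 2 and 4 µM replicate 1, both at a depth of 1.00, held the highest and the lowest count. When only transcripts above a fixed abundance were counted, the numbers were 2986, 3068 and 2573 at 0 µM, 2803, 3268 and 3296 at 4 µM, then 2919, 3781 and 3122 at 6 µM. This floor was 0.914 FPKM times kilobase, the highest of the 9 libraries' 5th percentiles. The 3 doses then overlapped, the exact permutation p of 6 against 0 µM was 0.4, and 4 µM lay above 0 µM on average (3122 against 2876). Above the floor, then, the 6 µM libraries did not separate from the others.

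As a share of all transcripts the same order held without the floor. Intronic single-exon transcripts were 12.7%, 13.4% and 13.7% of a library at 0 µM, 12.6%, 13.9% and 13.1% at 4 µM, then 15.0%, 16.1% and 14.5% at 6 µM, again with 6 µM above the rest. The trend had an exact permutation p of 0.0685 (adjusted 0.157). Without 4 µM replicate 1, the library with the lowest share, it was 0.0357. Host genes numbered 2399, 2462 and 2658 at 0 µM, 2401, 2632 and 2394 at 4 µM, then 2948, 3048 and 2703 at 6 µM, 15.7% more at 6 than at 0 µM, with an exact permutation p of 0.1 (adjusted 0.171) and a trend p of 0.0863 (adjusted 0.157).

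**Figure D2:**
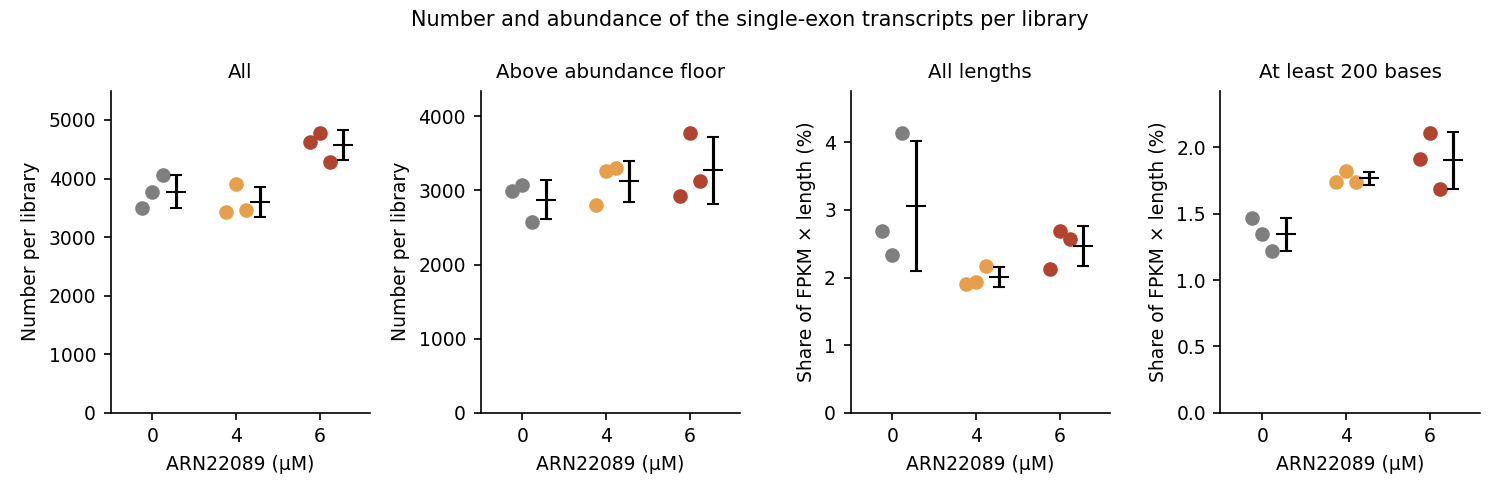
Number of intronic single-exon transcripts per library (all, and those above the abundance floor) and their FPKM times length share in percent (all lengths, and those of at least 200 bases) by dose in µM; points are libraries, dashes and bars are the mean ± SD of 3. The 6 µM libraries all lie above the others in number only without the abundance floor, and the mean share at 0 µM goes from the highest to the lowest when transcripts under 200 bases are left out.

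The second measure was the share of the library's RNA that these transcripts carried, taken as FPKM times length over the same sum for all transcripts. The share was 2.69%, 2.33% and 4.14% at 0 µM, 1.899%, 1.93% and 2.17% at 4 µM, then 2.12%, 2.69% and 2.57% at 6 µM. The 0 µM libraries lay above all 4 µM libraries, by means of 3.05 ± 0.959 against 2.00 ± 0.150 (SD, n = 3), and overlapped the 6 µM libraries (2.46 ± 0.300). The exact permutation p was 0.1 for 4 against 0 µM (adjusted 0.171) and 0.5 for 6 against 0 µM, and the trend had a slope of -0.122 percentage points per µM and an exact p of 0.191. Without 0 µM replicate 3 the slope was -0.0161, and the differences from 0 µM went from -1.05 to -0.508 percentage points at 4 µM and from -0.591 to -0.0474 at 6 µM.

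A few very short transcripts held much of that share. Only 198 of the 35825 were under 200 bases, 12 to 32 per library, and they carried 1.22%, 0.981% and 2.93% of the RNA at 0 µM, 0.162%, 0.112% and 0.438% at 4 µM, then 0.215%, 0.581% and 0.890% at 6 µM. The largest single values came from 2 places. A transcript of 101 bases inside OTOGL at chr12:80103262-80103362, on the ribosomal protein pseudogene RPL26P32, was listed at 106084 FPKM in 0 µM replicate 1 (1.12% of the RNA) and at 92236 FPKM in 0 µM replicate 3 (0.940%). The same place was listed at 72773 FPKM in 6 µM replicate 3 (0.793%) and 36928 in 6 µM replicate 2 (0.417%). Lower values there were 33435 FPKM in 4 µM replicate 3 (0.361%) and 25500 in 0 µM replicate 2 (0.281%). Another of 101 bases inside HLA-DRB5 at chr6:32521908-32522008 was listed at 184472 FPKM in 0 µM replicate 3 (1.88%). Both places have near-identical copies elsewhere in the genome, so these levels are uncertain.

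With transcripts of at least 200 bases only, the share was 1.47%, 1.35% and 1.22% at 0 µM, 1.74%, 1.82% and 1.74% at 4 µM, then 1.91%, 2.11% and 1.68% at 6 µM. Both treated doses now lay wholly above 0 µM and overlapped each other. The means were 1.34 ± 0.125, 1.76 ± 0.0486 and 1.901 ± 0.213 (SD, n = 3), higher by 31.3% at 4 µM and by 41.4% at 6 µM, each at the smallest exact permutation p of 0.1. The slope was 0.0945 percentage points per µM, with an exact permutation p of 0.00238, and 0.00926 when doses were exchanged only among libraries of the same replicate number. Leaving out any 1 library gave slopes of 0.0826 to 0.109 with p between 0.00179 and 0.00893. This trend was chosen after seeing the data, and adjusted over all 41 trends computed here its p was 0.061, so none of the 41 passed 0.05, while 8 had an unadjusted p under 0.05. Leaving short transcripts out of the denominator as well gave a slope of 0.0905 (exact permutation p = 0.00298).

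**Figure D3:**
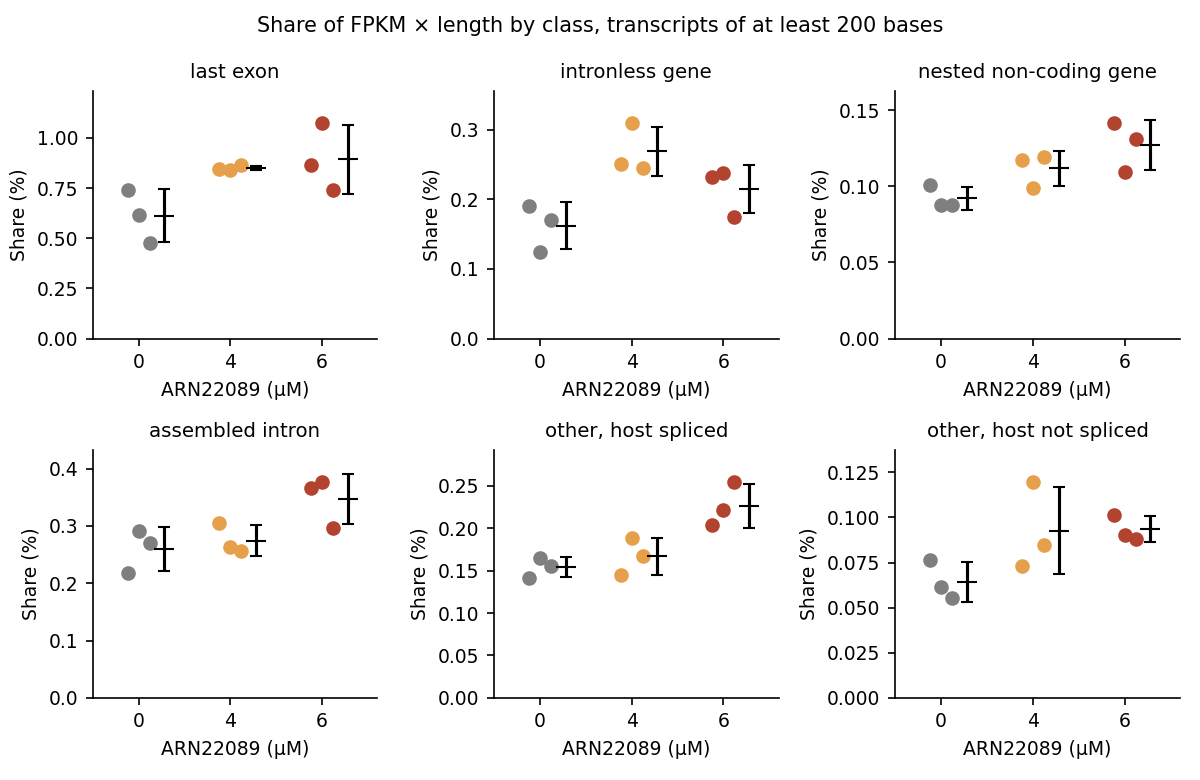
FPKM times length share in percent of transcripts of at least 200 bases by dose in µM, for each of the 6 places in the host gene; points are libraries, dashes and bars are the mean ± SD of 3. Last exons hold the largest share at each dose, and the mean at 6 µM is above that at 0 µM in all 6 classes.

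The same share was split by place in the host. Last-exon transcripts carried 0.611 ± 0.132% of the RNA at 0 µM, 0.850 ± 0.0115% at 4 µM and 0.892 ± 0.170% at 6 µM (SD, n = 3), with a trend p of 0.0149 by the exact permutation test (adjusted 0.0893 over 12 class trends). In the assembled intron class the libraries were at 0.218%, 0.292% and 0.271% at 0 µM, 0.305%, 0.263% and 0.256% at 4 µM, then 0.367%, 0.377% and 0.297% at 6 µM. There the 6 µM libraries lay above those of 0 µM but overlapped those of 4 µM, with an exact permutation p of 0.0565 for the trend (adjusted 0.113). Nested non-coding genes had means of 0.0921%, 0.112% and 0.127% (exact permutation p = 0.0101, adjusted 0.0893). Intronless genes were highest at 4 µM, with means of 0.162%, 0.269% and 0.215% (exact permutation p = 0.132, adjusted 0.227). No class passed 0.05 after adjustment.

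Recurrence asked whether a transcript seen in one library was met again in another. On average 49.3% of a library's intronic single-exon transcripts were overlapped by one of another library of the same dose (38.1% to 55.7% over 18 ordered pairs), and 46.3% by one of a library of another dose (33.8% to 59.7% over 54 ordered pairs). The difference of 2.97 percentage points had an exact permutation p of 0.00357, the smallest that the 280 ways of dividing 9 libraries into 3 groups allow. It was 3.12 points in the assembled intron class (33.8% against 30.6%, exact permutation p = 0.00357) and 2.17 points in last exons (54.3% against 52.2%, exact permutation p = 0.0107). The call rested on single libraries: the difference was 2.25 points without 4 µM replicate 1 (exact permutation p = 0.0571), 2.11 without 4 µM replicate 3 (0.0607) and 1.88 without 6 µM replicate 1 (0.0643).

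The direction of the look-up mattered. Transcripts of 4 µM libraries were met in 6 µM libraries in 55.9% of cases on average, above the 53.1% within 4 µM, and those of 6 µM libraries were met in 4 µM libraries in 43.0%. Those of 0 µM libraries were met in 43.9% within their own dose and in 48.1% at 6 µM. The 6 µM libraries, which held the most transcripts and were the deepest on average, gave the most matches to transcripts of other doses, and the part of number and depth in this was not tested.

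**Figure D4:**
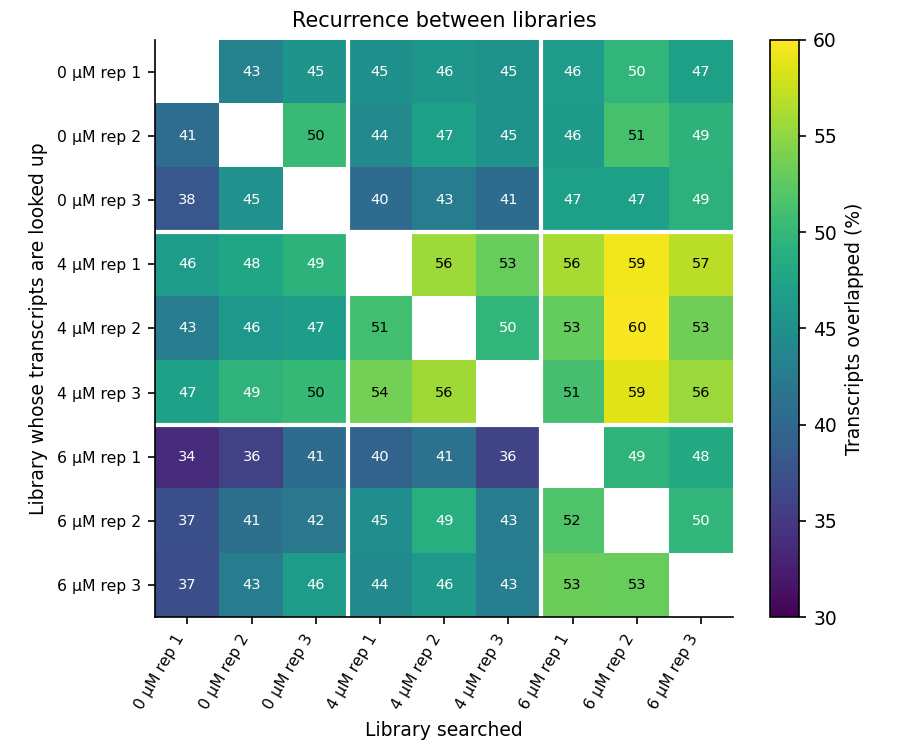
Percent of the intronic single-exon transcripts of the library in each row that are overlapped by one of the library in each column, for all 9 libraries ordered by dose. Cells within a dose average 49.3% and cells between doses 46.3%, and between doses the columns of the 6 µM libraries average higher than their rows.

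Merged over libraries, the transcripts formed 10833 loci. Of these 5056 (46.7%) had a member in 1 library only, 3971 (36.7%) in at least 3 and 396 (3.66%) in all 9. Last exons made up 1730 of the 3971 (43.6%) and 190 of the 396, and the assembled intron class 948 (23.9%) and 53. In 2219 of the 3971 (55.9%) some library had no member but had another transcript on the locus. Absence of a member is therefore often not absence of a transcript.

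The host genes with the most members held up to 156 over the 9 libraries. POLR2F, a subunit shared by the nuclear RNA polymerases, held 8, 24 and 22 at 0 µM, 12, 8 and 16 at 4 µM, then 20, 22 and 24 at 6 µM, within 73.5 kb that also contain SOX10. The doses overlapped in POLR2F. BCAS3, a protein linked to the cytoskeleton and cell migration, held 2, 7 and 5 at 0 µM, 5, 7 and 4 at 4 µM, then 20, 13 and 20 at 6 µM, so that each 6 µM library was above all others. All 83 of its transcripts were without a strand and lay within 168 kb of the 715 kb gene. Above the abundance floor its counts were 2, 6 and 3, then 4, 6 and 4, then 8, 8 and 11, still with no overlap between 6 µM and the rest. BCAS3 was chosen for its total, and without the floor each 6 µM library also held more members over all hosts than any other library. How many of the 6355 hosts separated in this way was not counted. The spliced level of BCAS3 was 81.2 ± 29.0 FPKM at 0 µM, 190.5 ± 36.9 at 4 µM and 193 ± 46.4 at 6 µM (SD, n = 3).

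STARD13, a gene of a lipid-transfer-domain protein, held 1, 7 and 5 transcripts at 0 µM, 6, 8 and 6 at 4 µM, then 14, 9 and 13 at 6 µM. The 6 µM libraries were the highest, and of the 69 transcripts 30 lay on the opposite strand and 39 had none. Above the floor the STARD13 counts of 1, 6 and 4, then 5, 7 and 6, then 7, 7 and 10 no longer separated 6 from 4 µM. PDE10A, a phosphodiesterase that breaks down cyclic nucleotides, held 8, 7 and 3, then 5, 10 and 5, then 18, 15 and 9, with 4 and 6 µM overlapping. These 2 hosts and BCAS3 span 574 to 715 kb.

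KCNQ1, a potassium channel gene with no assembled spliced transcript here, held 64 transcripts, all on the opposite strand within KCNQ1OT1, the imprinted antisense RNA of the gene. Its libraries held 5, 13 and 8 at 0 µM, 4, 9 and 3 at 4 µM, then 5, 11 and 6 at 6 µM. ANKRD10, an ankyrin-repeat gene, held 61, of which 59 were of the assembled intron class, at 4 to 9 per library, with a median of 6.69 FPKM over a stretch of 24.7 kb. MICAL3, an actin-modifying monooxygenase, held 3, 7 and 3 at 0 µM, 7, 6 and 5 at 4 µM, then 8, 13 and 7 at 6 µM, the lowest 6 µM library matching the highest of the others. MORN1 (68), C12orf76 (62) and SMIM7 (54) complete the 10, with means per library of 6.67, 6 and 6.67 at 0 µM and 9, 8.33 and 7 at 6 µM. These host counts are given without a test.

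Among loci with a member in all 9 libraries, the 10 of highest mean level were mostly not intron in the usual sense. SLC5A3, the myo-inositol transporter whose gene lies inside MRPS6, had a last-exon locus at chr21:34103415-34106031. Its level was 32.9, 47.2 and 46.3 FPKM at 0 µM, 79.0, 73.9 and 87.8 at 4 µM, then 138, 95.8 and 86.8 at 6 µM. Both treated doses were above 0 µM in every library, but neither difference passed the test of each locus described below: log2 difference 0.93 at 4 µM (limma adjusted p = 0.291) and 1.31 ± 0.24 (SE) at 6 µM (limma adjusted p = 0.0688). The pseudogene HMGN1P36 in an intron of TMEM131 had 94.0, 69.2 and 90.3 FPKM at 0 µM, 46.9, 50.2 and 64.1 at 4 µM, then 54.9, 44.5 and 53.2 at 6 µM. It was lower at both doses in every library and also did not pass (limma adjusted p = 0.147 for 6 with 0 µM).

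The highest of these loci lay on a copy of mitochondrial sequence. MTRNR2L9, inside KHDRBS2, had 1096, 2024 and 1722 FPKM at 0 µM, 5752, 3313 and 1411 at 4 µM, then 6779, 4994 and 2885 at 6 µM, over 148 bases. The level at 6 µM was above that at 0 µM in every library, with a limma adjusted p of 0.221, and the near-identical mitochondrial gene makes the level uncertain. The loci of SHC4 and CENPT lay for 65.7% and 88% of their length on EID1 and THAP11, protein-coding genes of the intronless kind. EID1, an inhibitor of the acetyltransferases p300 and CBP, gave the SHC4 locus 40.2 to 57.2 FPKM, and THAP11, a zinc-finger transcription factor, gave the CENPT locus 30.4 to 42.0. TSPYL1, a nucleosome assembly family gene inside DSE, was the flattest at 18.8 to 23.8 FPKM over the 9 libraries.

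Levels were compared locus by locus with limma on log2(FPKM + 1), for 3278 single-exon loci with a mean of at least 1 FPKM and a single-exon transcript in at least 3 libraries. Of these, 1873 were intronic, with a member in at least 3 libraries, and 553 (29.5%) of the 1873 were at 0 in some library. Calls were few in all 3 comparisons, and 7 intronic loci passed an adjusted p of 0.05 in any. Leaving out 1 library at a time gave 3 to 9 intronic calls for 4 with 0 µM, 5 to 17 for 6 with 0 µM and 1 to 7 for 6 with 4 µM. A log2 difference on this scale understates the change of a low level. The 3 comparisons share libraries, so their values stand side by side and are not independent.

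Between 4 and 0 µM, 1 intronic locus passed higher and 1 lower, 0.0534% of those tested each way, beside 0.153% higher and 0.122% lower (0.275% in all) of all single-exon loci tested. With a replicate block 1 was called. The higher one lay in PKD1, the gene of polycystin-1, at chr16:2132195-2133048 in an assembled intron. It was listed at 0 in all 3 libraries at 0 µM, and at 4.89, 3.34 and 5.06 FPKM at 4 µM, then 2.40, 2.92 and 1.903 at 6 µM. All 6 treated libraries had a single-exon transcript there, of 238 to 779 bases with no strand. The log2 difference was 2.43 ± 0.18 (SE) at 4 µM (limma adjusted p = 0.000928) and 1.76 ± 0.18 at 6 µM (limma adjusted p = 0.00485), and it held under all alternatives run. The locus met the requirement of a member in at least 3 libraries through the treated groups alone, so a difference of this direction was built into its choice. Spliced PKD1 transcripts were at 15.9, 5.98 and 12.2 FPKM at 0 µM, 27.7, 14.9 and 14.6 at 4 µM, then 13.1, 25.4 and 17.6 at 6 µM, with overlap. PKD1 has near-identical pseudogenes on the same chromosome, so reads may be divided among copies.

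The lower one lay at the 5′ end of CDC42BPA, the kinase MRCKα, which is itself an effector of CDC42. The locus, chr1:227317376-227318382, was at 6.62, 10.3 and 10.5 FPKM at 0 µM, 2.24, 1.43 and 1.52 at 4 µM, then 0.670, 0.513 and 0.940 at 6 µM, with no overlap between any of the doses. The log2 difference was -1.88 ± 0.21 (SE) at 4 µM (limma adjusted p = 0.00993) and -2.55 ± 0.21 at 6 µM (limma adjusted p = 0.00145). The call at 4 µM was lost without 4 µM replicate 3 (limma adjusted p = 0.0554), with TPM (0.0799) and with a replicate block (0.0821), and the call at 6 µM held in each of these. At 0 µM the locus was covered by the first exon of spliced CDC42BPA transcripts that reached 227318032, 227318490 and 227318405. At 4 µM spliced transcripts began at 227317446 or 227317424 in replicates 1 and 2, and single-exon transcripts of 590 to 880 bases covered the rest. Spliced CDC42BPA transcripts summed to 10.2, 24.1 and 10.5 FPKM at 0 µM, 10.7, 7.63 and 14.4 at 4 µM, then 13.5, 14.9 and 14.4 at 6 µM, so the doses overlapped for the whole gene.

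The locus ends 110 bases inside the RefSeq start site of CDC42BPA. The stretch around that start, chr1:227318463-227318612 on the minus strand of GRCh38.p14, is shown because the locus that differed adjoins it, with transcribed bases in capitals and upstream bases in lower case.
CDC42BPA: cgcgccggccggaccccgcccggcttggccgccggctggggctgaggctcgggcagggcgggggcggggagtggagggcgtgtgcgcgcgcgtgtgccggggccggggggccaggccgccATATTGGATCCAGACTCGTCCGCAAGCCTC

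The next loci by p in this comparison did not pass. PGBD4, a transposase-derived gene, was at 0, 0 and 0.402 FPKM at 0 µM, 1.44, 1.61 and 1.54 at 4 µM, then 1.40, 1.33 and 1.57 at 6 µM (log2 difference 1.18 at 4 µM, limma adjusted p = 0.103). PGBD4 had members in treated libraries alone, so, as for PKD1, a difference of this direction was built into its choice. ENTPD7 had a log2 difference of -1.85 (limma adjusted p = 0.137) and FEM1C, a substrate receptor of a ubiquitin ligase, -1.17 (limma adjusted p = 0.143). Neither of these 2 loci had an intronic single-exon transcript at 0 µM, where other transcripts gave the level. The intronic single-exon transcripts themselves were thus not lower at 4 µM. Over all 1873 intronic loci the median log2 difference was -0.04, beside -0.01 over the 3278. At an unadjusted p under 0.05, 86 intronic loci were higher (4.59%, beside 5.46% of all loci) and 111 lower (5.93%, beside 5.09%).

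Between 6 and 0 µM, 5 intronic loci passed higher and 2 lower, 0.267% and 0.107% of the 1873, beside 0.336% and 0.183% (0.519% in all) of all single-exon loci tested. With a replicate block 4 were called. The loci described are PKD1 and CDC42BPA, given above, with POLR2F, ZC3H14 and PRUNE2 higher and RCHY1 lower. The shares are near those of all loci. The median log2 difference was 0.04 over intronic loci and 0.07 over all, and 184 intronic loci were higher (9.82%, beside 11.8% of all loci) and 135 lower (7.21%, beside 6.80%) at an unadjusted p under 0.05.

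The largest increase at 6 µM was in POLR2F, at chr22:37985830-37991172, a span of 5343 bases that contains the hairpin of hsa-miR-4534. It starts 1275 bases past the higher coordinate of the RefSeq span of SOX10, a transcription factor of the melanocyte lineage. SOX10 is on the minus strand, so this is the side of its 5′ end. The level of the POLR2F locus was 1.78, 0 and 0 FPKM at 0 µM, 4.33, 5.87 and 4.94 at 4 µM, then 7.80, 9.62 and 9.30 at 6 µM, with no overlap between any of the doses. The log2 difference was 2.81 ± 0.38 (SE) at 6 µM (limma adjusted p = 0.0223), and the difference at 4 µM did not pass (limma adjusted p = 0.143). At 0 µM only replicate 1 had transcripts there, 3 of 1218 to 2017 bases. The locus thus met the requirement of a member in at least 3 libraries through the treated groups. A difference of this direction was therefore partly built into its choice. In the treated libraries the span was covered by single transcripts, of 4976 to 5329 bases in 4 of the 6 libraries. 4 µM replicate 1 had one of 5014 bases overlapping a spliced one, and 6 µM replicate 1 one of 2 exons. All transcripts of the span with 1 exon were on the plus strand, opposite to SOX10, which was at 103, 131 and 141 FPKM at 0 µM, 160.0, 144 and 146 at 4 µM, then 151, 144 and 158 at 6 µM. The POLR2F call was lost without 0 µM replicate 2 (limma adjusted p = 0.0646), 0 µM replicate 3 (0.051), or 6 µM replicate 1 (0.0951), replicate 2 (0.0783) or replicate 3 (0.0696). It was also lost with a pseudocount of 0.1 (limma adjusted p = 0.107), with a replicate block (0.0748) and with single-exon members alone (0.596).

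ZC3H14, a poly-A-binding zinc-finger protein, had a locus at chr14:88613421-88615879 at 1.47, 1.48 and 1.31 FPKM at 0 µM, 1.40, 1.58 and 0.387 at 4 µM, then 7.37, 6.32 and 7.26 at 6 µM. The log2 difference at 6 µM was 1.72 from 0 µM (limma adjusted p = 0.0223) and 1.96 from 4 µM (limma adjusted p = 0.0236). The level at 6 µM came from spliced ZC3H14 transcripts on the plus strand, and the single-exon transcripts, which are on the minus strand and also inside EML5, were present only at 0 and 4 µM. The intronic single-exon transcripts themselves were thus not higher at 6 µM. The ZC3H14 calls were lost in 6 and 5 of the 9 leave-one-out fits, with a limma adjusted p of up to 0.118 and 0.153. Both were also lost with a replicate block (0.0622 and 0.108) and with a pseudocount of 0.1 (0.105 and 0.219).

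RCHY1, a ubiquitin ligase that targets p53, had a last-exon locus at chr4:75479200-75481850 at 3.76, 4.58 and 6.18 FPKM at 0 µM, 1.06, 1.03 and 0 at 4 µM, then 0, 0.594 and 0 at 6 µM (log2 difference -2.30 at 6 µM, limma adjusted p = 0.0389). At 0 µM it was covered by spliced RCHY1 transcripts of 9 exons, and at the treated doses, where there was a transcript at all, by single-exon ones. PRUNE2 had a locus at chr9:76611493-76614547, also on the lncRNA LOC105376095, at 0, 0.296 and 0.603 FPKM at 0 µM, 1.02, 1.49 and 1.42 at 4 µM, then 2.38, 2.78 and 1.89 at 6 µM (log2 difference 1.38, limma adjusted p = 0.0487). At 6 µM the PRUNE2 locus held no intronic single-exon transcript and was covered by spliced ones. The call was lost in 6 of the 9 leave-one-out fits for RCHY1 and in 8 of the 9 for PRUNE2, with a limma adjusted p of up to 0.153 and 0.166. Both were also lost with a replicate block (0.078 each), with intronic loci alone (0.0541 and 0.0629) and with a pseudocount of 0.1 (0.131 and 0.119).

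**Figure D5:**
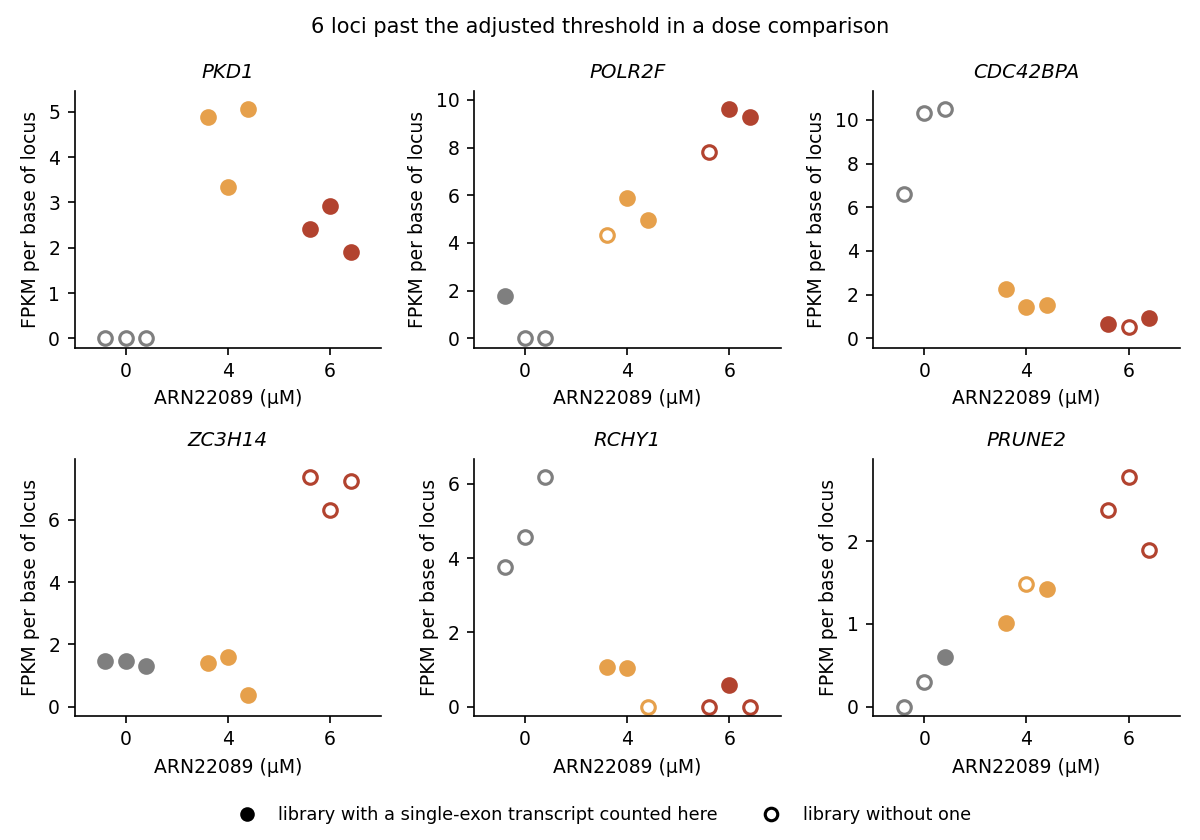
Level in FPKM of 6 intronic loci past a limma adjusted p of 0.05 in any comparison, by dose in µM; each point is 1 library, filled where the library has an intronic single-exon transcript on the locus and open where it has none. PKD1 is listed at 0 in all 3 libraries at 0 µM, and the high points of CDC42BPA, RCHY1, ZC3H14 and PRUNE2 are open.

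Between 6 and 4 µM, 2 intronic loci passed higher, ZC3H14 among them (0.107% of the 1873, beside 0.122% of all single-exon loci tested), and 0 passed lower by limma, beside 0.0610% of all. With a replicate block 1 was called. At an unadjusted p under 0.05, 70 were higher (3.74%, beside 4.03% of all loci) and 32 lower (1.71%, beside 1.92%). DEF8 came next without passing, at 0, 0 and 2.81 FPKM at 0 µM, 0 in the 3 libraries at 4 µM, then 3.47, 5.13 and 4.10 at 6 µM (log2 difference 2.38, limma adjusted p = 0.583). DEF8 had no member at 4 µM and one in each of the 3 libraries at 6 µM. A difference of this direction was thus built into its choice. RBM33, an RNA-binding protein, and CORO7, a coronin of the Golgi, had log2 differences of 0.97 and 0.86 (limma adjusted p = 0.583 for both). Much of the level of both loci at 6 µM came from other transcripts. Members alone were at 1.03, 0.993 and 0.640 FPKM at 4 µM and 0, 1.97 and 0 at 6 µM in RBM33. In CORO7 they were at 0.760, 0.494 and 0 FPKM at 4 µM and 0.253, 0 and 0.357 at 6 µM. The median log2 difference was 0.07 over intronic loci as over all, and 0.16 over the 417 loci of the assembled intron class.

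Presence gave another view over the 10833 loci, with no test and no like count over all single-exon loci. The 6 µM libraries held the most members and were the deepest on average, and the part of this in the counts below was not tested. A member was present in all 3 libraries of a dose in 891 loci at 0 µM, 1160 at 4 µM and 1334 at 6 µM, and in those 3 and none of the other 6 libraries in 17, 6 and 46 loci. Members were in all 3 libraries at 6 µM and none at 0 µM in 153 loci, of which 94 had no transcript of any kind at 0 µM. The opposite pattern, all at 0 µM and none at 6 µM, held in 53 loci, 30 of them with no transcript at 6 µM. For 4 and 0 µM the 2 counts were 80 (17 with no transcript at 0 µM) and 56 (37 with none at 4 µM).

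Many of the most abundant loci of this kind were covered at similar levels by other transcripts. FZD1, a Wnt receptor, and IRF2BP1, a transcriptional co-repressor, had members in the 3 libraries at 6 µM alone, yet the FZD1 locus was at 9.73, 15.9 and 13.9 FPKM at 0 µM, 14.3, 14.6 and 11.4 at 4 µM, then 14.0, 15.2 and 13.0 at 6 µM. PDHA1, a subunit of pyruvate dehydrogenase, had members in the 3 libraries at 0 µM and none at 6 µM, with the locus between 4.77 and 6.53 FPKM in all 9. In JUNB, the AP-1 component, a member was in all 3 libraries at 4 µM and none at 6 µM, where the locus was at 31.2, 33.8 and 23.9 FPKM.

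Other loci had no transcript of any kind assembled in some libraries, and are listed at 0 there. NUDT19, a coenzyme A diphosphatase, had a locus on the lncRNA LOC124904690 at chr19:32699638-32700134, at 12.9, 9.60 and 9.72 FPKM at 0 µM, 0, 5.33 and 0 at 4 µM and 0 in the 3 libraries at 6 µM (log2 difference -3.54 for 6 with 0 µM, limma adjusted p = 0.0688). An intron of ZC3H7A, a zinc-finger gene, was at 15.7, 11.8 and 18.8 FPKM at 0 µM, 0, 2.79 and 0 at 4 µM, then 0, 2.06 and 2.68 at 6 µM (log2 difference -3.38 for 4 with 0 µM, limma adjusted p = 0.146). An intron of SIRPA, the receptor of CD47, was at 6.86, 8.52 and 7.56 FPKM at 0 µM, 0.802, 0 and 0 at 4 µM, then 0, 0 and 4.99 at 6 µM (log2 difference -2.82 for 4 with 0 µM, limma adjusted p = 0.291). None of the 3 passed. They were chosen for members in all 3 libraries at 0 µM and none at the dose compared. That the groups compared did not overlap was therefore largely built into the choice.

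HNRNPL, a splicing regulator, had an intronic locus of 255 bases at chr19:38849724-38849978 with members at both treated doses and none at 0 µM. It was at 64.4, 64.4 and 0 FPKM at 0 µM, 118, 130.1 and 126 at 4 µM, then 64.6, 68.4 and 101 at 6 µM, highest at 4 µM, with limma adjusted p of 0.525 and 0.455 against 0 µM. DUT, the dUTPase gene, had an intronic locus with members in all 3 libraries at 6 µM and none at 4 µM, at 0, 27.1 and 19.4 FPKM at 0 µM, 13.4, 0 and 0 at 4 µM, then 46.4, 48.1 and 24.8 at 6 µM (log2 difference 4.01 for 6 with 4 µM, limma adjusted p = 0.798).

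Host genes were also read by function. Over all RefSeq protein-coding genes 31.7% were hosts, and 44.3% of those with spliced transcripts at a mean of at least 1 FPKM. The lists are given beside these shares without a test. Of 20 CDC42-family genes and effectors, 8 were hosts, 5 of them in at least 3 libraries: CDC42BPA, CDC42BPB, BAIAP2, TNK2 and PARD6B. Members per library averaged 4.33 at 0 µM, 4 at 4 µM and 5.33 at 6 µM. Of 3 loci tested, CDC42BPA passed, beside 0.275% and 0.519% of all loci at 4 and 6 µM, and its single-exon transcripts were present at the treated doses only, opposite to the direction of the call. BAIAP2, the CDC42 effector IRSp53, had an intronic locus on its own strand at chr17:81109404-81110482 with a member in all 9 libraries. It was at 3.90, 7.13 and 6.17 FPKM at 0 µM, 13.6, 12.2 and 9.18 at 4 µM, then 12.1, 10.5 and 10.0 at 6 µM, above 0 µM in every treated library, and did not pass (log2 difference 0.93, limma adjusted p = 0.291 at 4 µM, and 0.85, limma adjusted p = 0.127 at 6 µM). CDC42BPB, the MRCKβ kinase, was at 0, 3.72 and 3.98 FPKM at 0 µM, 0 in the 3 libraries at 4 µM, then 2.12, 3.54 and 2.33 at 6 µM, with no call.

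Genes known for retained introns were hosts more than any other list, 17 of 25, of which 11 had a member in at least 3 libraries. A host need not hold intron RNA: all 16 members of LUC7L3 lay in its last exon. All 10 of SON were of the assembled intron class. They held 10, 10 and 13 members at 0 µM, 8, 8 and 9 at 4 µM, then 10, 12 and 7 at 6 µM, and 0 of 7 loci tested passed in any comparison. An intron of OGT, the O-GlcNAc transferase, was at 3.31, 2.22 and 3.51 FPKM at 0 µM, 2.74, 1.37 and 1.29 at 4 µM, then 4.43, 2.95 and 2.85 at 6 µM. The 3 OGT values at 6 µM lay above those at 4 µM and overlapped those at 0 µM (log2 difference 0.67, limma adjusted p = 0.798, for 6 with 4 µM). An intron of SON, a splicing co-factor, was at 7.98 to 21.9 FPKM with all doses overlapping.

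On the other lists, of 20 melanocyte genes 7 were hosts, and RAB38, a GTPase of melanosome transport, had a locus with a member in all 9 libraries at 0.314 to 1.57 FPKM. PAX3, a melanocyte transcription factor, had an intronic locus on its own strand at 0.687, 0.974 and 0.718 FPKM at 0 µM, 0 in the 3 libraries at 4 µM, then 0.869, 0 and 0 at 6 µM, which was too low to be tested. Of 28 genes of mitosis and replication 5 were hosts, of 20 of cholesterol and fatty acid synthesis 8, and of 15 of the NF-kB pathway 5. REL, an NF-kB subunit, had a last-exon locus with a member in all 9 libraries at 0.418 to 0.995 FPKM. PCF11, a cleavage factor whose own gene has an intronic poly-A site, was the 1 host of 2 genes on the list for intronic polyadenylation.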

How the data were processed

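RNA from 9 WM3248 libraries (3 each at 0, 4 and 6 µM ARN22089, grouped by their titles) was poly-A enriched, per the labels' protocols. The authors deposited 1 transcript assembly per library with an FPKM for each transcript. Cufflinks 2.2.1, TopHat2 2.1, Bowtie2 2.2.7, Trimmomatic, R 4.0.3 and SAMtools 1.9 are named, with no roles, per the submitters' processing notes. The notes also name GRCh37, but scaffold names and coordinates are those of GRCh38 (732 transcripts lie on GRCh38-style scaffolds). The sources used here do not state whether reads kept their strand or whether an annotation guided the assembly. Read counts were not used, so precision is read from the replicates and from relative depth.

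Gene spans came from RefSeq (GRCh38.p14). Only strands, intron lengths and last-exon lengths came from GENCODE 44, since its coordinates are of another build. A transcript was placed in a class where at least 50% of it lay there. Overlaps needed at least 1 base. Loci were merged without regard to strand.

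Values per library were compared by exact two-sided permutation tests with Benjamini-Hochberg adjustment. Loci were tested in 1 fit over all 9 libraries with limma 3.58.1 (trend, R 4.3.3) on log2(FPKM + 1), adjusted over 3278 loci. On data simulated for 6 with 0 µM, the fit recovered 25 of 100 loci changed by a log2 of 1 and 64 of 100 changed by a log2 of 2 among 3278, with 8 false calls. Python 3.11.15, pandas 2.3.3, numpy 2.4.6 and bedtools 2.31.1 were used.

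Named loci and hosts are the 10 highest loci with a member in all 9 libraries, up to 10 loci per comparison past the threshold (or the 5 of smallest p), the 10 hosts with most members, loci present in all 3 libraries of one dose and none of another (up to 5 each way), hosts on the functional lists with a member in at least 3 libraries, and small or non-coding genes on these loci. Only some of them are described, and 1 of the called loci is not reported here. The members and lists were chosen with earlier results of these data known. Alternatives tried were other pseudocounts and filters, TPM scaling, other centring, members alone, length and abundance floors, stricter overlap, a replicate block and leaving out each library.

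Replicate numbers carry a shared mark in the descriptions whose meaning is not stated. Over 9 same-numbered pairs the correlation of deviations ran from -0.0405 to 0.228, and 3 were above 0.1. Different-numbered pairs of different doses ran from -0.238 to 0.120. The numbers were not taken to pair libraries in the main tests, and the replicate block is given as an alternative. Whether they pair libraries was not settled.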

Additional observations from a re-analysis of the deposited data

How the results depend on the processing

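Counting only transcripts above the abundance floor turned the difference of 4 with 0 µM to 247 transcripts, 1.33 percentage points of all transcripts and 184 hosts, and that of 6 with 4 µM to -0.539 points. With transcripts of at least 200 bases the share differences became 0.420 (4 with 0 µM) and 0.557 (6 with 0 µM) and the slope 0.0945. The same floor in numerator and denominator gave 0.391, 0.536 and 0.0905, and the assembled intron class above both floors 0.0236, 0.0762 and 0.0117, both settings chosen after seeing the data.

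The counts of called intronic loci, 2, 7 and 2 for 4 with 0, 6 with 0 and 6 with 4 µM, were 5, 96 and 31 with no filter on the mean. They were 14, 16 and 8 with member transcripts alone. With a pseudocount of 0.1, 3 were called at 6 with 0 µM and 0 at 6 with 4 µM, and with TPM 25 (23 higher, 2 lower) and 7. Where a single-exon transcript of any kind was required in at least 5 libraries, 1 was called at 6 with 4 µM. No cause was tested. Leaving out 1 library gave 3 to 9, 5 to 17 and 1 to 7 loci, -0.411 to 0.214 points and -109 to 45.2 hosts for 4 with 0 µM, slopes of 0.183 to 0.340 points per µM for the percent of all transcripts, and 1.88 to 4.32 points for recurrence. Every omission raised the 2 calls of 4 with 0 µM, most without 0 µM replicate 1 or 3 (9 each). For 6 with 0 µM, 11, 17 and 14 were called without 0 µM replicate 1, 0 µM replicate 3 and 4 µM replicate 2. For 6 with 4 µM, 5, 4, 7, 5 and 1 were called without 0 µM replicate 1, 4 µM replicates 1, 2 and 3 and 6 µM replicate 1.

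With the replicate number as a block, 1, 4 and 1 loci were called. Blocked trends in number, share, percent and hosts had exact permutation p of 0.153, 0.199, 0.0926 and 0.134, and an exact sign-flip test over 3 pairs cannot go below 0.25. For the named loci, 219 alternative values kept their direction and side of the threshold, 48 lost it, 5 gained it and 0 reversed.

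Each library was assembled on its own, so a change in how far a spliced transcript reaches moves a transcript into or out of the set. No read counts were used, so the depth behind a single low value is unknown, and a listed 0 says only that no transcript was assembled.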
